A study of Mus musculus with 4 samples.

Results

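The D-type cyclins, their partner kinases Cdk4 and Cdk6 and the inhibitors of these kinases were examined in sorted dermal papilla cells with and without Sox2. The set lists 10 genes of these families, chosen by the difference of Ccnd2 between the groups in earlier results of the same arrays. The contrast of Sox2 cKO with Sox2 Het thus entered the choice, and the members' differences are described below without a test. Values came from probe sets whose annotation names a single gene, averaged per gene, which gave a value to 9 of the 10 genes among 19938 genes in all. Of these 9, Cdkn1b had 2 probe sets and the other 8 had 1 each. The only probe set that lists Cdkn1a, the p21 gene, also lists the transcript 4930567H12Rik, so no value was assigned to Cdkn1a.

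The dermal papilla is a cluster of mesenchymal cells enclosed by the hair bulb. Its cells were taken from mouse skin at postnatal day 5 and sorted for a Sox2GFP reporter together with the surface marker integrin alpha 9. One group was heterozygous for the transcription factor gene Sox2 (Sox2 Het, 2 arrays) and the other carried a conditional knockout of it (Sox2 cKO, 2 arrays). Both groups were sorted on the same reporter, so only cells with reporter signal were measured, and a control with 2 intact Sox2 alleles was not analysed here. The sources used here do not give the strain, the sex, the driver of the recombination or any pooling of animals. They call the replicates biological but do not say whether each came from a separate animal.

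Each value is a log2 difference from the probe set's own median over the 4 arrays. A level of 1 gene against another, or whether a gene was detected, cannot be read from such values, and the labelled cell type could not be checked against its markers for the same reason. Sox2 was at 0.96 and 0.87 in Het and at -0.87 and -0.94 in cKO, which follows the labels, although where its probe set lies relative to the deleted part was not examined. Over the 4 arrays the medians of all probe sets lay between -0.0037 and 0.0043. Over all 19938 genes, limma called 0 (0%) at an adjusted p of 0.05, with 1053 at an unadjusted p under 0.05. The smallest limma adjusted p was 0.34, that of Sox2 itself at -1.81 ± 0.06 (SE, n = 2 arrays per group). The absence of calls is therefore not read as an absence of differences.

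D-type cyclins are the growth factor responsive subunits that switch on Cdk4 and Cdk6 early in the G1 phase. The active kinases phosphorylate the retinoblastoma protein and so release E2F transcription factors, which turn on genes for DNA replication. Inhibitors of the INK4 family (Cdkn2a, Cdkn2b, Cdkn2c) bind Cdk4 and Cdk6 and block their pairing with cyclins, while those of the CIP/KIP family (Cdkn1a, Cdkn1b) bind assembled cyclin and kinase complexes. Papilla cells divide little during hair growth compared with the epithelial matrix above them.

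Ccnd2, which encodes cyclin D2, was the member with the largest difference. It stood at 0.35 and 0.38 in Het replicates 1 and 2, against -0.35 and -0.57 in cKO replicates 1 and 2. Both Het arrays were thus high and both cKO arrays low, with no overlap. The difference, cKO minus Het, was -0.83 ± 0.09 (SE of the limma fit, n = 2 arrays per group), a 1.78-fold lower value. Within the groups the SD was 0.019 in Het and 0.15 in cKO. In bulk arrays of this kind, fewer cells that express a gene and less RNA per cell cannot be told apart. The 4 comparisons of a cKO with a Het array ranged from -0.71 (cKO replicate 1 minus Het replicate 1) to -0.95 (cKO replicate 2 minus Het replicate 2). Among all genes, 33 had a lower difference than Ccnd2, which ranks it 34 of 19938.

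The other D-type cyclins had smaller differences. Ccnd1, the gene of cyclin D1, stood at 0.080 and -0.21 in Het and at 0.18 and -0.080 in cKO. Its groups overlapped, and replicate 1 was the higher array in both groups, by 0.29 in Het and 0.26 in cKO. The difference between the groups was 0.11 ± 0.15 (SE, n = 2 per group). It took the opposite sign without Het replicate 2 (-0.032) and without cKO replicate 1 (-0.014). Ccnd3, the gene of cyclin D3, stood at 0.011 and 0.030 in Het and at -0.14 and -0.011 in cKO. The groups did not overlap, but the nearest arrays, Het replicate 1 and cKO replicate 2, were 0.023 apart. Its difference of -0.094 ± 0.059 (SE) shrank to -0.032 without cKO replicate 1.

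**Figure D1:**
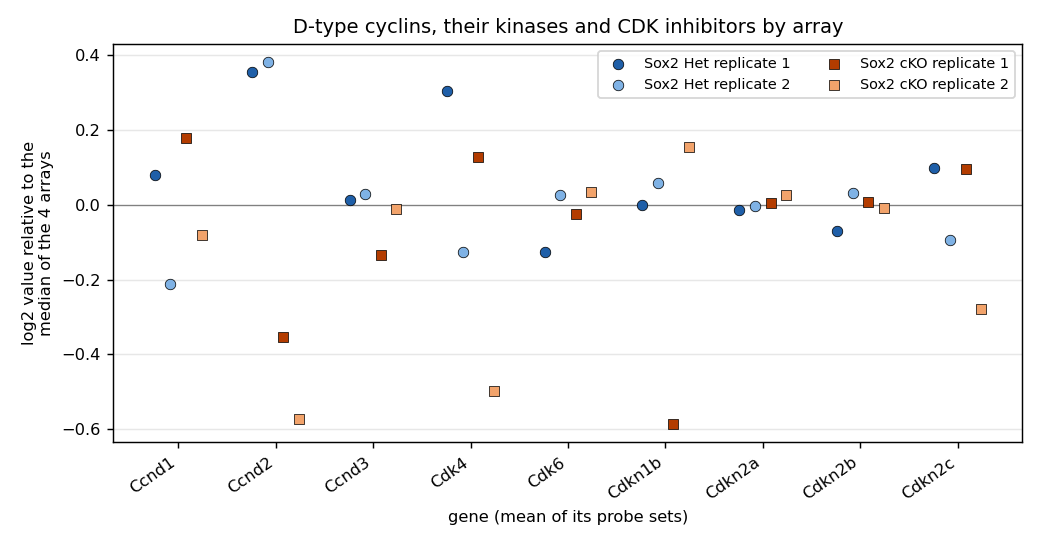
Log2 value of each measured gene relative to the median of the 4 arrays (vertical axis), with 1 point per array, circles for Sox2 Het and squares for Sox2 cKO. Ccnd2 has both Het arrays at 0.35 or above and both cKO arrays at -0.35 or below, while Cdk4 and Cdkn1b spread widely between arrays of the same group.

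Cdk4, which encodes a catalytic partner of the D-type cyclins, varied more between replicates than between groups. It stood at 0.30 and -0.13 in Het and at 0.13 and -0.50 in cKO, so the groups overlapped. Replicate 1 exceeded replicate 2 by 0.43 in Het and by 0.62 in cKO, and only 3.68% and 1.78% of all genes had a larger gap between the arrays of these groups. The difference between the groups was -0.27 ± 0.29 (SE, n = 2 per group), and it was 0.038 without cKO replicate 2. Cdk6, which encodes the alternative partner, stood at -0.13 and 0.025 in Het and at -0.025 and 0.033 in cKO, with overlapping groups. Its difference was 0.054 ± 0.070 (SE), and -0.022 without Het replicate 1.

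Cdkn1b, the gene of the inhibitor p27, was set apart by 1 array. Het replicates 1 and 2 stood at -0.0017 and 0.058 and cKO replicate 2 at 0.15, against -0.59 in cKO replicate 1. The cKO arrays thus lay on both sides of the Het arrays, and the groups overlapped. Their gap of 0.74 was exceeded by that of 1.04% of all genes. Both probe sets were lowest in cKO replicate 1, at -0.49 and -0.68. In cKO replicate 2 they parted, with the first at -0.026 and the second at 0.33. The difference between the groups was -0.24 ± 0.28 (SE, n = 2 per group), and without cKO replicate 1 it was 0.13. The probe set shared by Cdkn1a and 4930567H12Rik stood at 0.069 and 0.24 in Het and at -0.073 and -0.069 in cKO, without overlap, and cannot be ascribed to either transcript.

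Of the INK4 genes, Cdkn2a and Cdkn2b varied little over the arrays and Cdkn2c varied more. Cdkn2a, whose locus encodes p16 and the overlapping ARF protein, stood at -0.014 and -0.0042 in Het and at 0.0042 and 0.025 in cKO. These groups did not overlap, yet the whole range was narrow, and the difference was 0.024 ± 0.036 (SE, n = 2 per group). Cdkn2b, the p15 gene next to Cdkn2a, stood at -0.072 and 0.031 in Het and at 0.0081 and -0.0081 in cKO, with overlap, a difference of 0.020 ± 0.052 (SE). It was -0.031 without Het replicate 1. Cdkn2c, the p18 gene, stood at 0.098 and -0.095 in Het and at 0.095 and -0.28 in cKO. As for Cdk4 and Ccnd1, replicate 1 was above replicate 2 in both groups. Its difference was -0.094 ± 0.16 (SE), which took the opposite sign without cKO replicate 2 (0.094) and was 0.0034 without Het replicate 1.

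Counted over the 9 measured members, the groups were separate with cKO lower in 2 (Ccnd2 and Ccnd3) and with cKO higher in 1 (Cdkn2a), while 6 overlapped. Over all genes 15.6% were separate with cKO lower and 17.8% with cKO higher. Nothing is read from the members' counts, since the choice of members used this contrast. The median difference was -0.094 over the 9 members, -0.037 over the 8 other than Ccnd2, and 0.0034 over all genes. Replicate 1 was above replicate 2 in both groups in 3 members (Ccnd1, Cdk4, Cdkn2c), and replicate 2 above replicate 1 in 4 (Ccnd3, Cdk6, Cdkn1b, Cdkn2a). The same counts over all genes were 5343 and 6079 of 19938.

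**Figure D2:**
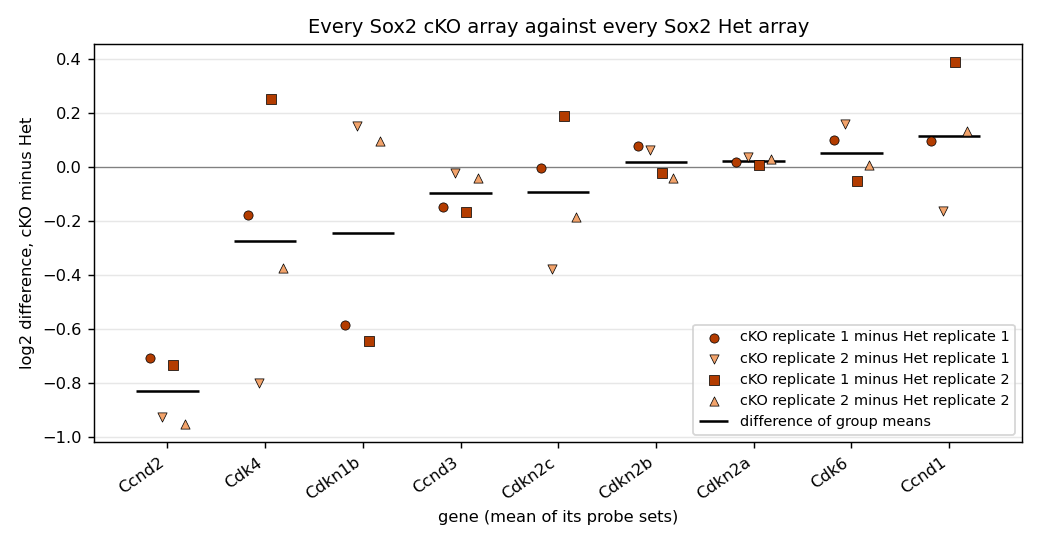
Log2 difference of each Sox2 cKO array from each Sox2 Het array (vertical axis, 4 points per gene), with a bar at the difference of the group means and genes ordered by that difference. All 4 points lie between -0.71 and -0.95 for Ccnd2, while those of Cdk4 and Cdkn1b fall on both sides of 0.

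Ccnd2 was then set against the other members within each array, which removes any shift common to the genes of an array. The mean of the other 8 members was 0.035 and -0.037 in Het and -0.042 and -0.083 in cKO. Ccnd2 minus this mean was 0.32 and 0.42 in Het and -0.31 and -0.49 in cKO. The groups stayed separate, and the difference was -0.77 ± 0.10 (SE from the within-group variances, n = 2 per group). Against the mean of Ccnd1 and Ccnd3 alone it was -0.84 ± 0.11 (SE), from 0.31 and 0.47 in Het and -0.38 and -0.53 in cKO. Ccnd2 minus a single member gave separate groups for 8 of 8 members. Nothing is read from this count, since Ccnd2 was chosen by this contrast and its own groups were already 0.71 apart. The same share over all genes was not computed.

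The distance between the groups depended on the member subtracted. The difference was largest against Ccnd1 at -0.95 ± 0.16 and smallest against Cdk4 at -0.56 ± 0.31 (both SE from the within-group variances). For Cdk4 the nearest arrays of the 2 groups, Het replicate 1 at 0.052 and cKO replicate 2 at -0.074, were 0.13 apart. For Cdkn1b they were 0.091 apart, since Ccnd2 minus Cdkn1b was 0.23 in cKO replicate 1 but -0.73 in cKO replicate 2. In cKO replicate 1, therefore, Ccnd2 and Cdkn1b were both low.

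**Figure D3:**
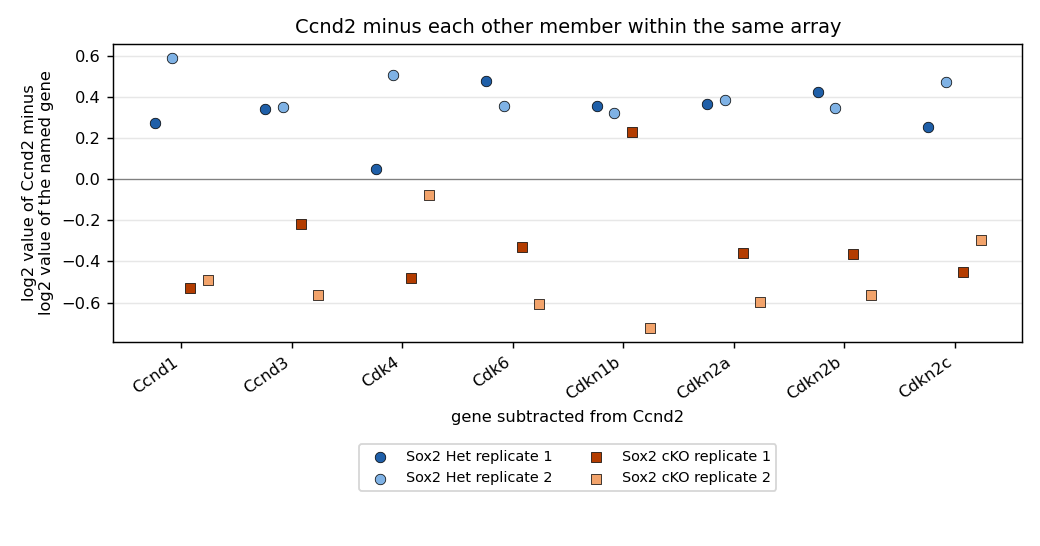
Log2 value of Ccnd2 minus that of each other member in the same array (vertical axis), with circles for Sox2 Het and squares for Sox2 cKO. The Het arrays lie above the cKO arrays for each of the 8 genes, with the narrowest gaps at Cdkn1b (0.091) and Cdk4 (0.13). The groups of Ccnd2 alone are 0.71 apart.

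The 5 genes whose 4 values lay closest to those of Ccnd2, by root mean square difference over the 4 arrays, were Fabp7, Tbcb, Anxa2, Krtap8-1 and Znhit6. Fabp7, a fatty acid binding protein gene known from glia, was closest at a distance of 0.012. It stood at 0.36 and 0.38 in Het and at -0.36 and -0.55 in cKO. Tbcb, a tubulin folding cofactor gene, followed at 0.044, Anxa2, a membrane binding annexin gene, at 0.067, and Krtap8-1, a hair shaft protein gene, at 0.074. Znhit6 was at 0.081. None of these 5 was a member, and the closest member was Cdk4 at a distance of 0.35, which ranks 1617 among all genes. Ccnd1 was the most distant member at 0.49. With 4 arrays, closeness of this kind is a description of the values only.

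Other genes of the same pathway were taken from 10 lists holding 84 measured genes. In all, 56 were lower and 28 higher in cKO with a median difference of -0.035, beside 9513 lower and 10420 higher over all 19938 genes. Separate groups with cKO lower were found in 15 genes (17.9% of the 84, against 15.6% of all genes). With cKO higher they were found in 10 (11.9% against 17.8%). Replication and mitosis genes made up 27 of the 56, and without cKO replicate 2 only 9 of these 33 genes were lower. Of the 84 genes, 0 passed limma's test adjusted over all genes, beside 0 of all 19938. An unadjusted limma p under 0.05 was found in 3 of the 84, beside 1053 of the 19938, and nothing is read from the 3. The remaining CDK inhibitor genes, Cdkn1c (p57) and Cdkn2d (p19), were lower in both cKO arrays than in both Het arrays. Cdkn2d stood at 0.13 and 0.082 in Het and at -0.082 and -0.16 in cKO, a difference of -0.22 ± 0.05 (SE), and Cdkn1c differed by -0.079 ± 0.049 (SE). The retinoblastoma gene Rb1, the substrate of the cyclin D kinases, ran the other way. It stood at -0.092 and -0.23 in Het and at 0.092 and 0.54 in cKO, a difference of 0.48 ± 0.18 (SE). Its relative Rbl2, the p130 gene of resting cells, was also separate and higher in cKO at 0.24 ± 0.08 (SE), while Rbl1 (p107) overlapped.

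E2F and DP factors, the transcription partners released by the retinoblastoma proteins, had 8 of 10 genes lower and a median of -0.031. The largest differences were those of the DP gene Tfdp2 at -0.26 ± 0.11 (SE) and of E2f8, a repressor, at -0.17 ± 0.06 (SE), both with separate groups. The cyclin E and A group with Cdk2 and Cdc25a was lower in 4 of 5 cases, with Cdk2 at -0.13 ± 0.13 (SE) and Ccne1 at 0.10 ± 0.04 (SE). Of the 3 genes of the CDK-activating kinase, Cdk7 differed by -0.13 ± 0.07 (SE) and Mnat1 by 0.059 ± 0.108 (SE). Among ubiquitin ligase genes that act on cyclins or p27, 2 of 6 were lower. They were Fbxw7, which targets cyclin E, at -0.34 ± 0.12 (SE) and Cks1b, a cofactor for p27 turnover, at -0.18 ± 0.25 (SE).

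Regulators that act upstream of the members had 6 of 9 genes lower and a median of -0.11. Myc, a growth regulator that acts on cyclin D2, differed by -0.13 ± 0.06 (SE) with separate groups, and Ezh2, a Polycomb enzyme gene that represses the Cdkn2a locus, by -0.22 ± 0.33 (SE). The p53 targets had 8 of 13 genes higher and a median of 0.057. Within this list, which stands in for the response that also controls Cdkn1a, the antiproliferative gene Btg2 differed by -0.41 ± 0.23 (SE) and the kinase gene Plk2 by 0.32 ± 0.20 (SE).

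Replication and mitosis genes moved with single arrays. The S phase genes were lower in 10 of 14 cases, with medians of 0.024 and -0.024 in Het and of 0.041 and -0.081 in cKO. Tyms, the thymidylate synthase gene, was separate at -0.29 ± 0.07 (SE), and Gins2, a replication helicase subunit gene, overlapped at -0.27 ± 0.22 (SE). The G2 and M phase genes were lower in 17 of 19 cases, and 0 had separate groups. Over all genes 15.6% were separate with cKO lower and 17.8% with cKO higher. The medians of the G2 and M phase genes were 0.0038 and -0.0018 in Het, 0.12 in cKO replicate 1 and -0.25 in cKO replicate 2. The cyclin B2 gene Ccnb2 differed by -0.25 ± 0.20 (SE) and the centromere gene Cenpa by -0.23 ± 0.19 (SE). Without cKO replicate 2, 4 of 19 were lower with a median of 0.12, and 5 of 14 S phase genes were lower with a median of 0.036.

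**Figure D4:**
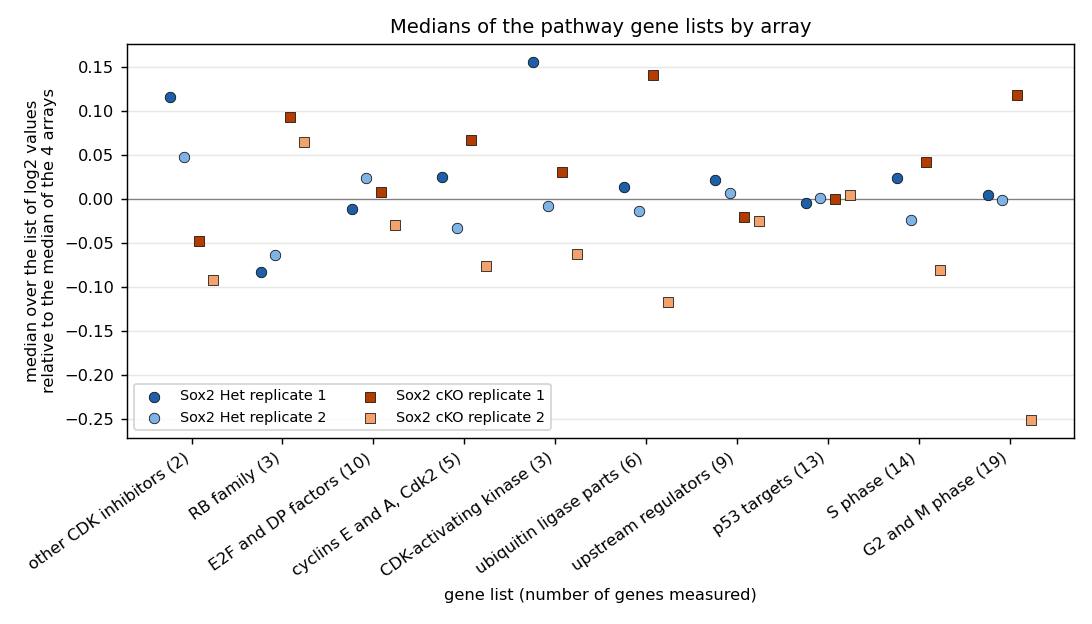
Median log2 value of each pathway list in each array (vertical axis), relative to the median of the 4 arrays per probe set, with the number of measured genes in brackets. The G2 and M phase list stands at 0.12 in cKO replicate 1 but at -0.25 in cKO replicate 2, with both Het arrays near 0.

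Ccnd2 minus the median of the S phase and G2 and M phase genes was 0.35 and 0.39 in Het and -0.41 and -0.35 in cKO. The difference was -0.75 ± 0.04 (SE from the within-group variances, n = 2 per group). This SE is not that of the limma fit, so it is not set against the SE given for Ccnd2 alone. Ccnd2, Cdk4 and Cdkn2c had their lowest value in cKO replicate 2, the array in which the medians of the division genes were lowest. Ccnd3 and Cdkn1b were lowest in cKO replicate 1, Cdk6, Cdkn2a and Cdkn2b in Het replicate 1, and Ccnd1 in Het replicate 2. The share of all genes that were lowest in cKO replicate 2 was not computed. The part of the division genes in the values of the members was not tested.

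Markers of other cells that a skin sort can hold also differed between arrays. The keratinocyte list had medians of -0.12 and 0.39 in Het and of -0.028 and 0.013 in cKO, and the melanocyte list of -0.086 and 0.18 in Het and of -0.040 and 0.042 in cKO. Both were highest in Het replicate 2. Separate and lower in cKO were 1 of 11 keratinocyte and 0 of 8 melanocyte genes, with 0 separate and higher in either list. Dermal fibroblast markers were lower in cKO in 7 of 8 cases, 4 of them separate (15.6% of all genes were separate and lower), with medians of 0.093 and 0.19 in Het and of -0.025 and -0.094 in cKO. The remaining fibroblast marker, Twist2, was separate and higher at 0.21. Schwann cell markers, which include Fabp7, were lower in 5 of 7 cases, 3 of them separate, with medians of 0.091 and 0.019 in Het and of -0.0067 and -0.11 in cKO. Egr2, a Schwann cell transcription factor gene, had a larger difference than Ccnd2, at -1.35. In the same list Sox10 overlapped at -0.11, and Foxd3 at 0.086 and Mbp at 0.039 were higher with overlap. Among the papilla's own markers 8 of 14 were lower, a count that includes Sox2, the gene knocked out by design. Of these, Sox2, Vcan at -0.77, Rspo3 at -0.66 and Alpl at -0.43 were separate. Lef1 at 0.51 and Sox18 at 0.40 were separate and higher (17.8% of all genes were separate and higher). Endothelial genes were lower in 3 (1 separate) and higher in 4 (3 separate). Immune genes were lower in 4 (3 separate) and higher in 4 (2 separate). Merkel cell genes were lower in 4 and higher in 2, with 0 separate. Hair matrix and shaft genes were lower in 7 (3 separate) and higher in 3 (0 separate). Contractile genes of the dermal sheath were lower in 6 (2 separate) and higher in 1 (0 separate). Since the values hold no levels, summed marker levels and markers at 0 could not be given, and the part of these cells in the difference of Ccnd2 was not tested.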

How the data were processed

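Expression was measured on Affymetrix arrays in 2 Sox2 Het and 2 Sox2 cKO samples. The authors made the deposited values with RMA, per the submitters' processing notes; RMA gives log2 values, and base 2 was assumed here for the deposited log2 values because the table does not state it. The sources used here give no software version, genome build or centring step. For all 28853 probe sets the 4 arrays had a median of 0 (within 1e-06), so neither a filter on low values nor an expression level was possible.

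Of the probe sets, 21789 named 1 gene, 1621 several and 5443 none in the platform annotation. The groups were fitted by limma 3.58.1 under R 4.3.3 (lmFit and eBayes with the group alone as term, two-sided) with Benjamini-Hochberg adjustment over 19938 genes. The fit was also run on simulated normal data with planted differences, an outcome not given here and from which nothing is read. The p-values reflect only the spread among these arrays, which may be technical, and 2 arrays per group limit the precision. Members, gene lists, naming rule and alternatives were chosen with earlier results of these data known. Named were Sox2, every member, the 2 genes with the largest difference in each pathway list and the 5 genes closest to Ccnd2. Rbl1 and the single cell type markers (Fabp7, Egr2, Sox10, Foxd3, Mbp, Twist2, Vcan, Rspo3, Alpl, Lef1, Sox18) were named after their values were seen. The plots used Python 3.11.15 and matplotlib 3.10.9.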

Additional observations from a re-analysis of the deposited data

How the results depend on the processing

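With 1 array left out, Ccnd2 differed by -0.72 to -0.94, and Ccnd2 minus the mean of the other members by -0.68 to -0.86. Members with separate groups then numbered 3 to 4 lower and 2 to 3 higher in cKO. Fewer arrays separate more easily, and the same shares over all genes were not computed. Nothing is read from these counts. Centring the arrays moved each member's difference by 0.0036. With probe sets naming several genes included, 3 members were separate and lower, a setting for which the share over all genes was not computed either. The added member was Cdkn1a, through the probe set it shares with 4930567H12Rik. No setting called a gene. Division gene lists without single arrays were added after the data were seen: without Het replicate 1, 7 of 14 S phase genes were lower. Replicate numbers are shared by the groups without a stated pairing. The replicate differences of the groups correlated at 0.30 over genes and at 0.71 over the 9 measured members. Between arrays of the same number, Ccnd1 differed by 0.097 and 0.13 and Cdk4 by -0.18 and -0.37. With replicate as a block, Ccnd2 differed by -0.83 ± 0.08 (SE), and genes at an unadjusted p under 0.05 went from 1053 to 1625.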
